A study of Bos taurus with 16 samples.

Results

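The experiment described here treated bovine embryonic stem cells (bESCs) with LY2955303 (LY), an inhibitor of retinoic acid receptor gamma (RARγ), and measured the transcriptome. It comprised 4 of the 16 RNA-seq libraries of the series, chosen by their labels: 2 libraries from cells given 10 µM LY for 3 days (LY) and 2 from cells in the same medium as controls (tifx). The other 12 libraries were from single blastocysts and were not used here. The libraries of each group carried the replicate numbers 2 and 3. According to the study's methods, the lines came from the inner cell mass of Holstein blastocysts, which were made by in vitro fertilization. They grew on mitotically inactivated mouse embryonic fibroblasts in TiFX, a medium based on mTeSR-plus that contains a MEK inhibitor, IWR-1, EPZ004777, SU5402, CHIR99021, forskolin and human LIF, so these agents were present in both groups. The labels name no vehicle for tifx, while the study's text calls the control DMSO. They give every library the same batch and do not say whether libraries 2 and 3 were separate cultures, lines or days. The p-values below therefore measure only the spread between these libraries, which need not be that between independent cultures. Within a group that spread was mostly the difference between the numbers, as described below.

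Retinoic acid enters cells as its precursor retinol, is made there by retinol and retinaldehyde dehydrogenases, and binds nuclear receptors (RARα, RARβ, RARγ) that sit on DNA with a retinoid X receptor. The loaded receptors switch on developmental genes, with the HOX clusters and the retinoic acid hydroxylases of the CYP26 family among the best known. bESCs represent the pluripotent epiblast, the part of the embryo that forms the body. The study used them to ask what LY changes in these cells, with an interest in mitochondrial respiration.

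The table lists 28303 genes, of which 8489 have no symbol and 7353 had no read in any of the 4 libraries. Values are FPKM (fragments per kilobase of gene length, scaled to the size of the library). The reads on genes behind them, recovered from the values, ranged from 29055323 to 31230432 per library. A gene was tested if it averaged at least 10 reads over the 4 libraries, which 16026 genes did. Differences are given as log2 fold changes, LY minus tifx, on the scale of log2(FPKM + 0.1), which understates the change of low genes. Chromosomes are those of the deposited table, whose genome build is not given in the sources used here.

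The cells carried most of the markers of pluripotent cells in both groups, with 10 of 11 above 1 FPKM in every library. POU5F1, the central pluripotency factor, had an FPKM of 1086 and 967 in tifx (numbers 2 and 3, the order used throughout) and 1117 and 1012 in LY. LIN28A, an RNA-binding protein of early embryonic cells, was at 843 and 868 in tifx and 847 and 960 in LY. NANOG, a further pluripotency factor, was at 53.8 and 38.7 in tifx and 43.8 and 36.3 in LY. The summed FPKM of 11 pluripotency markers lay between 2716 and 2850 in the 4 libraries, with overlapping groups. Among them TDGF1 was low, at 1.66 and 0.420 in tifx and 2.17 and 0.458 in LY. SOX2 was also on the marker list but was not found by its symbol. The summed FPKM of 10 trophectoderm markers lay between 37.9 and 106 and was higher in both libraries of number 2, with the largest part from the keratin KRT18 (85.6 and 18.4 in tifx, 72.6 and 16.8 in LY), while PAG2 and IFNT2 were listed at 0 in every library. The summed FPKM of 10 fibroblast markers, which feeder cells could contribute, lay between 72.0 and 74.6. That of 6 lymphocyte markers lay between 0.255 and 0.488, and that of 5 neural markers between 285 and 385, mostly from TUBB3 and NES. None of the markers of these or the other cell types examined passed the threshold for a difference between LY and tifx.

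The 2 numbers differed far more than LY differed from tifx. The median absolute difference between LY and tifx was 0.13 log2 units within number 2 and 0.11 within number 3. Between numbers 3 and 2 it was 0.32 in tifx and 0.35 in LY. A difference above 1 log2 unit was seen for 431 genes (2.69%) between LY and tifx within number 2 and for 333 (2.08%) within number 3, against 1938 (12.1%) between the numbers in tifx and 2009 (12.5%) in LY. The first principal component held 82.3% of the variance and placed both number 2 libraries at one end (-45.9 for tifx, -48.7 for LY) and both number 3 libraries at the other (47.0 and 47.6). Libraries of the same number were not the same library deposited under both labels, since the counts of each such pair differed by more than sampling noise (mean chi-square per gene 7.46 and 5.82).

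**Figure D1:**
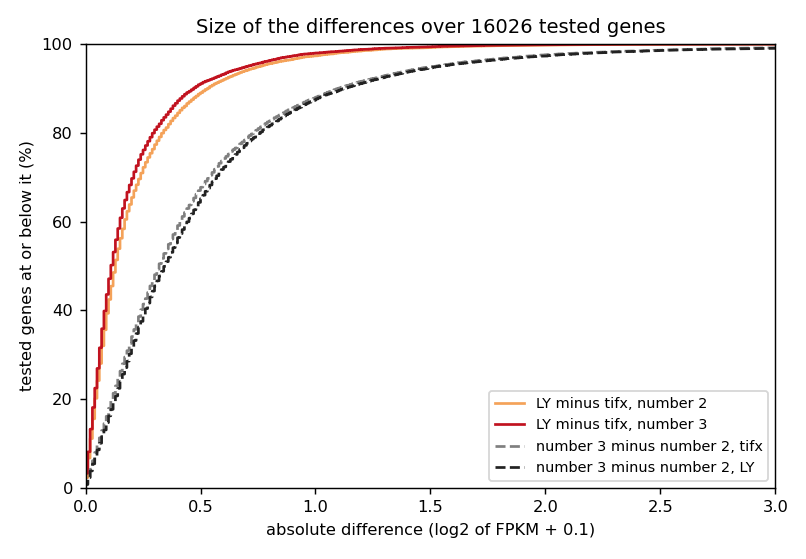
Cumulative share (%) of the 16026 tested genes against the absolute difference in log2(FPKM + 0.1), for LY minus tifx within number 2 and within number 3 (solid lines) and for number 3 minus number 2 within tifx and within LY (dashed lines). The solid lines climb faster, with medians of 0.13 and 0.11 against 0.32 and 0.35.

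Developmental genes were among those that differed between the numbers. HOX genes, which pattern the body axis and are textbook targets of retinoic acid, were nearly silent with number 2 and expressed with number 3. Their summed FPKM over the 31 members tested was 8.04 in tifx and 9.37 in LY with number 2, and 424 in tifx and 455 in LY with number 3. All 31 were higher with number 3 in both groups, and 30 of them exceeded 1 FPKM in both number 3 libraries. CDX2, a caudal and trophectoderm factor, had an FPKM of 0.368 and 0.243 with number 2 (tifx, LY) and 13.7 and 15.2 with number 3. OTX2, an anterior epiblast factor, went the other way, with 33.4 and 24.3 for number 2 and 3.40 and 2.80 for number 3. Reads on mitochondrial transcripts made up 2.41% and 2.59% of reads on genes for number 2 and 4.09% and 4.18% for number 3. LY and tifx libraries of the same number lay close together in each of these cases, so the spread within a group was mostly the difference between the numbers.

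Against this spread, few genes separated LY from tifx. With limma on the log2 scale, 30 genes (0.187% of those tested) had an unadjusted p below 0.05 and a fold change above 2, the threshold the study used. Of these 14 (0.0874%) were higher and 16 (0.0998%) lower in LY. An unadjusted p below 0.05 was reached by 52 genes in all (0.324%). In this fit, which has no term for the number, none remained with Benjamini-Hochberg adjustment across the tested genes (0%) and the adjusted p was 1.000 for every gene. None remained with limma's voom weights, under which 19 genes had an unadjusted p below 0.05. In simulated data, 0.0% of genes changed by 2 log2 units passed adjustment without a term for the number. The lack of adjusted genes therefore cannot show that LY changed no gene. A fit with that term is given at the end. The 95% confidence interval of a log2 fold change reached a median of 0.75 to either side, and 0.49 for the 7015 genes with a mean FPKM of at least 10, so changes smaller than this were not detectable for a typical gene in this fit. With a pseudocount of 1 FPKM, which weighs down low genes, 2 genes were higher and 5 lower past the threshold. Of the 30 genes, 22 had a mean FPKM below 2 and 1 had a mean of at least 10. An exact permutation test of a single gene over 2 against 2 libraries cannot give a two-sided p below 0.333.

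The differences within number 2 and within number 3 had little in common across genes. Pearson's r between the 2 sets of differences was 0.043 over the 16026 genes, which are not independent replicates and share library-wide properties. LY was higher within both numbers for 4003 genes (25.0%), lower within both for 4462 (27.8%), and the signs disagreed or a difference was 0 for 7561 (47.2%). The 4 values of a gene did not overlap between the groups for 2273 genes (14.2%), with LY higher for 1094 (6.83%) and lower for 1179 (7.36%). A difference above 1 log2 unit within both numbers was seen for 30 genes in the same direction (0.187%) and for 27 in opposite directions (0.168%). Of the 30 in the same direction 13 were higher and 17 lower in LY, and 16 were also among the 30 past the threshold.

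**Figure D2:**
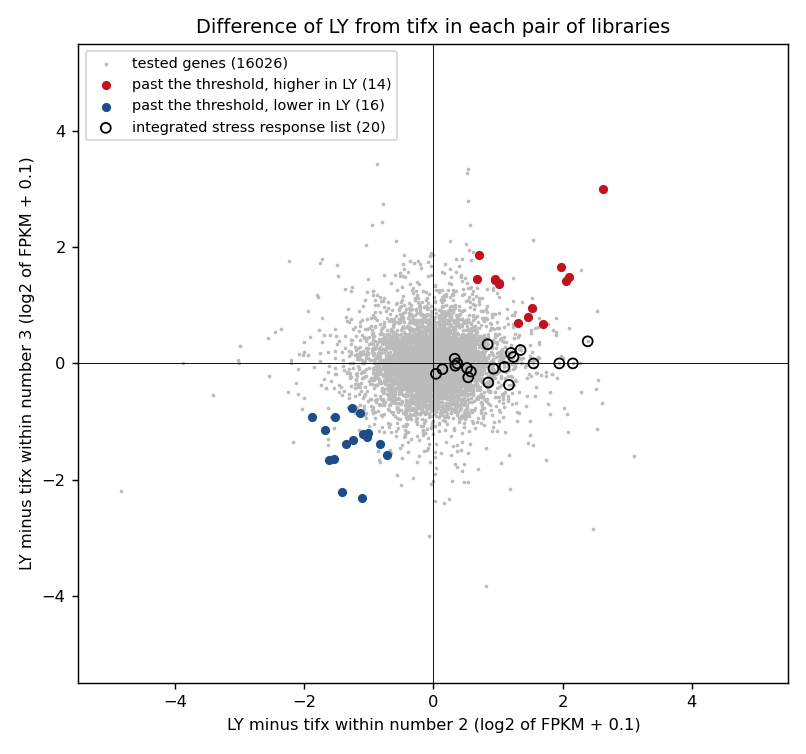
Difference between LY and tifx in log2(FPKM + 0.1) within number 2 (x axis) and within number 3 (y axis), 1 point per tested gene, with genes past the threshold filled (14 higher in red, 16 lower in blue) and 20 integrated stress response genes circled. The cloud has no diagonal trend (r = 0.043), and the circled genes lie along the right side of the x axis, at differences of 0.04 to 2.39 for number 2 and -0.37 to 0.38 for number 3.

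The gene with the smallest p was ENSBTAG00000052987 on chromosome X, annotated as similar to MAGED4, a member of the melanoma antigen D family. Its FPKM was 0.570 and 1.00 in tifx and 4.03 and 8.71 in LY, from 63, 119, 433 and 1036 reads. Both LY libraries lay above both tifx libraries by a wide margin. The log2 fold change was 2.81 (SE 0.52, 95% confidence interval 1.42 to 4.20), with 2.62 within number 2 and 3.0 within number 3. The family member MAGED4B, also on chromosome X, was at 1.89 and 2.41 in tifx and 1.69 and 2.55 in LY, a log2 fold change of -0.04 (SE 0.35). The pair together had 7.29 and 10.3 reads per 1000000 (RPM) in tifx and 19.6 and 39.4 in LY, so the sum was higher as well, by 1.43 and 1.94 log2 units.

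MEF2B, a MADS-box transcription factor that the study named from these libraries, was higher in LY. It had an FPKM of 0.152 and 0.118 in tifx and 0.887 and 0.590 in LY, from 6, 5, 34 and 25 reads. The groups did not overlap, and the log2 fold change was 1.81 (SE 0.42, 95% confidence interval 0.70 to 2.93). Because the study picked this gene on the same data, its value here is not independent evidence of its direction. With a pseudocount of 1 FPKM the log2 fold change was 0.61, below the threshold of 1.

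GZMA and LGALS9 were also named by the study from these libraries, and both fell under the filter of 10 reads on average. GZMA, a serine protease of cytotoxic lymphocyte granules, had 12 reads in each tifx library and 0 in each LY library, at an FPKM of 0.268 and 0.249 against 0 and 0. With 3 reads over the LY group put in place of the 0, it was 7.91-fold lower in LY. LGALS9, a secreted galectin, had 0 reads in both tifx libraries and 10 and 6 in LY, at an FPKM of 0.176 and 0.0956. It was 5.40-fold higher in LY with 3 reads put in place of the 0 in tifx. These ratios take the reads of the other group as exact and leave out the spread between libraries. Tested without the filter, with 200 of 20950 genes past the threshold, both genes passed it, with log2 fold changes of -1.84 (SE 0.33) and 1.22 (SE 0.35) and an adjusted p of 1.000. The summed FPKM of the 6 lymphocyte markers, beside the lymphocyte gene GZMA, was 0.341 and 0.488 in tifx and 0.255 and 0.364 in LY, with CD2 listed at 0 in every library. CD3E, a chain of the T cell receptor complex, moved in the direction of GZMA, with 17 and 35 reads in tifx and 0 and 17 in LY, differences of -1.64 and -0.77 within the numbers, without a call. PTPRC, a surface phosphatase of blood cells, had 13 and 2 reads in tifx and 13 and 10 in LY. The part of these markers in the GZMA difference was not tested. In the longer lymphocyte and cytotoxic granule list, 2 of the 4 tested genes, CD3E and the gasdermin GSDME, were lower in LY without overlap, while 14.2% of all tested genes had no overlap in either direction.

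Other genes higher in LY included a signalling ligand, BMP6, and mostly genes of low expression. It encodes a ligand of the bone morphogenetic protein pathway and was at 0.503 and 0.664 in tifx and 1.40 and 1.14 in LY. Its groups did not overlap, and the log2 fold change was 1.01 (SE 0.36, 95% confidence interval 0.05 to 1.97), just past the threshold, and 0.52 with a pseudocount of 1 FPKM. C15H11orf52, an open reading frame on chromosome 15, was at 0.192 and 0.149 in tifx and 1.12 and 0.563 in LY (log2 fold change 1.74, 95% confidence interval 0.46 to 3.01). ENSBTAG00000052230, annotated as similar to the NKG2D ligand RAET1E, was at 0.872 and 1.46 in tifx and 2.69 and 2.91 in LY (log2 fold change 1.24, 95% confidence interval 0.25 to 2.22). A histone H2B gene on chromosome 7, ENSBTAG00000051810, and a locus of the protease inhibitor CSTB, ENSBTAG00000018189, had log2 fold changes of 1.19 and 1.13. The remaining genes of this direction that the naming rule reached were 3 long non-coding RNAs, 2 unannotated transcripts, and a copy of LSM6, with log2 fold changes from 1.06 to 1.80. RAET1E, H2B and protocadherin genes belong to families of near-identical copies, so their reads could be split between members.

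Among the protein-coding genes lower in LY, none was expressed strongly except a copy of SEM1. SHISAL2B, a membrane protein of the shisa family, was at 1.90 and 1.95 in tifx and 0.880 and 0.751 in LY (log2 fold change -1.15, 95% confidence interval -1.99 to -0.31). SPIN4, a spindlin with Tudor-like domains on chromosome X, was at 1.71 and 2.13 in tifx and 0.924 and 0.752 in LY (log2 fold change -1.11, 95% confidence interval -2.00 to -0.21). SLC16A5, a monocarboxylate transporter, was at 1.19 and 1.02 in tifx and 0.486 and 0.515 in LY (log2 fold change -1.0, 95% confidence interval -1.92 to -0.08). In each of the 3 the LY libraries were lower within both numbers and did not overlap tifx. PCDHA4, a neuronal cell adhesion protein of the protocadherin alpha cluster, was at 0.451 and 0.380 in tifx and 0.0724 and 0.118 in LY (log2 fold change -1.41, 95% confidence interval -2.50 to -0.31). DNAJC12, a co-chaperone, and IGFBP1, a binding protein for insulin-like growth factors, were also past the threshold, at a mean FPKM below 0.5, and were singled out after their values were seen.

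**Figure D3:**
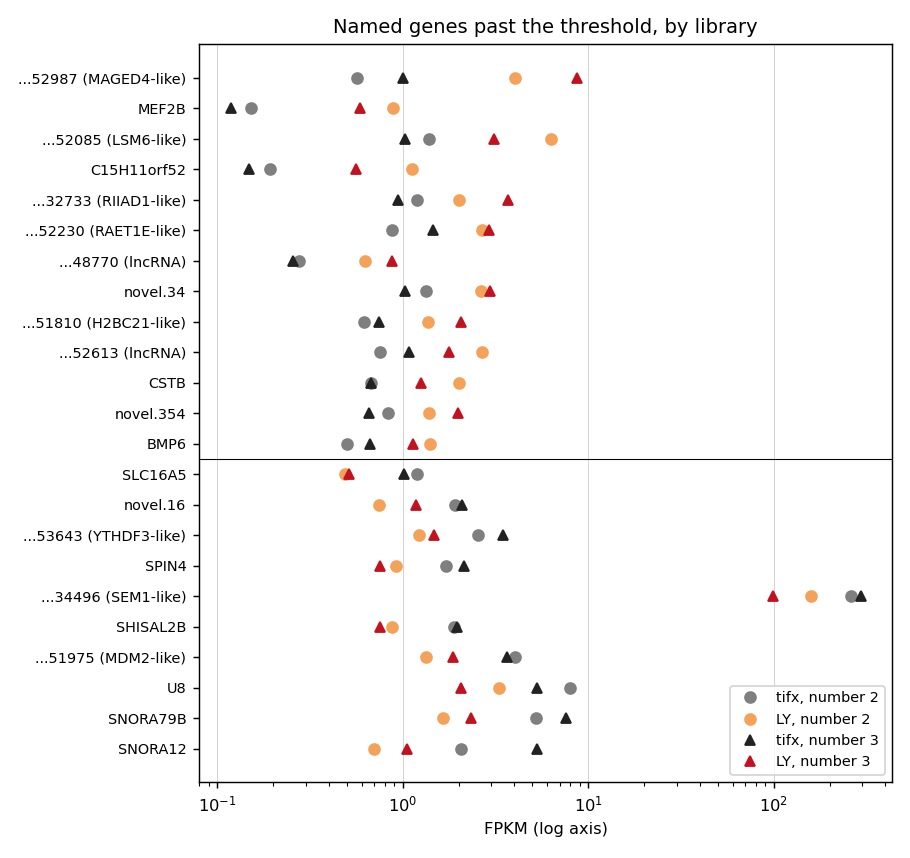
FPKM (log axis) of 23 of the 30 genes past the threshold in each library, with tifx in grey and black, LY in orange and red, circles for number 2 and triangles for number 3, and the 13 genes higher in LY above the line. IDs are shortened to their last 5 digits, and all genes but the SEM1 copy lie below 10 FPKM.

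Small nucleolar RNAs (snoRNAs), which guide the modification and processing of ribosomal RNA, supplied 3 of the 16 lower genes and none of the 14 higher ones, so that 1.85% of the tested snoRNAs were past the threshold, against 0.187% of all tested genes. SNORA79B had an FPKM of 5.24 and 7.63 in tifx and 1.64 and 2.33 in LY, from 23, 36, 7 and 11 reads (log2 fold change -1.65, 95% confidence interval -2.55 to -0.74). A U8 locus on chromosome 19, of the family needed to mature the large ribosomal subunit's RNAs, was at 7.94 and 5.31 in tifx and 3.31 and 2.07 in LY (log2 fold change -1.28, 95% confidence interval -2.26 to -0.29). SNORA12 was at 2.05 and 5.30 in tifx and 0.702 and 1.06 in LY (log2 fold change -1.82, 95% confidence interval -3.33 to -0.32). The U8 locus held 32 and 23 reads in tifx and 13 and 9 in LY, and SNORA12 held 9 and 25 against 3 and 5. On log2(normalized count + 1) none of the 3 kept the call, and with voom weights only SNORA79B did. Of 770 snoRNA genes listed, 162 were tested. Their median log2 fold change was -0.14, against -0.01 for all tested genes, with -0.22 within number 2 and -0.15 within number 3. LY was lower within both numbers for 58 of them (35.8%, against 27.8% of all genes) and higher within both for 23 (14.2%, against 25.0%). The class was looked at after its members had appeared among the called genes. The libraries were made from polyadenylated RNA, whereas most snoRNAs carry no poly(A) tail.

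Several called genes are short copies of a longer gene, and reads could be shared between the copies. The SEM1 copy on chromosome 22, ENSBTAG00000034496, is 213 bases long and was at 261 and 295 FPKM in tifx and 159 and 99.4 in LY (log2 fold change -1.14, 95% confidence interval -1.85 to -0.44). SEM1 itself, a small subunit of the proteasome lid on chromosome 4, was higher rather than lower in LY within both numbers, at 112 and 37.7 in tifx and 164 and 146 in LY (log2 fold change 1.25, 95% confidence interval -0.21 to 2.71). Both loci together had 108 and 80.3 RPM in tifx and 110 and 89.0 in LY, a difference of 0.03 log2 units within number 2 and 0.15 within number 3. The sum therefore differed by far less than either locus did.

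Copies of LSM6, MDM2, YTHDF3 and AASDHPPT were also past the threshold while the log2 fold changes of the longer genes they resemble lay between -0.08 and 0.07. The LSM6 copy (ENSBTAG00000052085) was at 1.39 and 1.03 in tifx and 6.27 and 3.09 in LY, a log2 fold change of 1.80 (SE 0.45). LSM6, an RNA-binding ring subunit, was at 82.6 and 61.6 in tifx and 92.2 and 60.8 in LY, a log2 fold change of 0.07. The MDM2 copy (ENSBTAG00000051975) was at 4.02 and 3.63 in tifx and 1.34 and 1.87 in LY, and MDM2, the ubiquitin ligase of p53, differed by 0.04. The YTHDF3 copy (ENSBTAG00000053643) was at 2.56 and 3.49 in tifx and 1.22 and 1.47 in LY, and YTHDF3, a reader of methylated adenosine in RNA, differed by -0.07. The AASDHPPT copy was higher by 1.20 and AASDHPPT lower by 0.08 log2 units (log2 fold change -0.08). The copies held at most 44 reads in a library where the longer genes held 1355 to 5569, so the calls of these 4 copies rest on a small share of the reads of each pair.

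**Figure D4:**
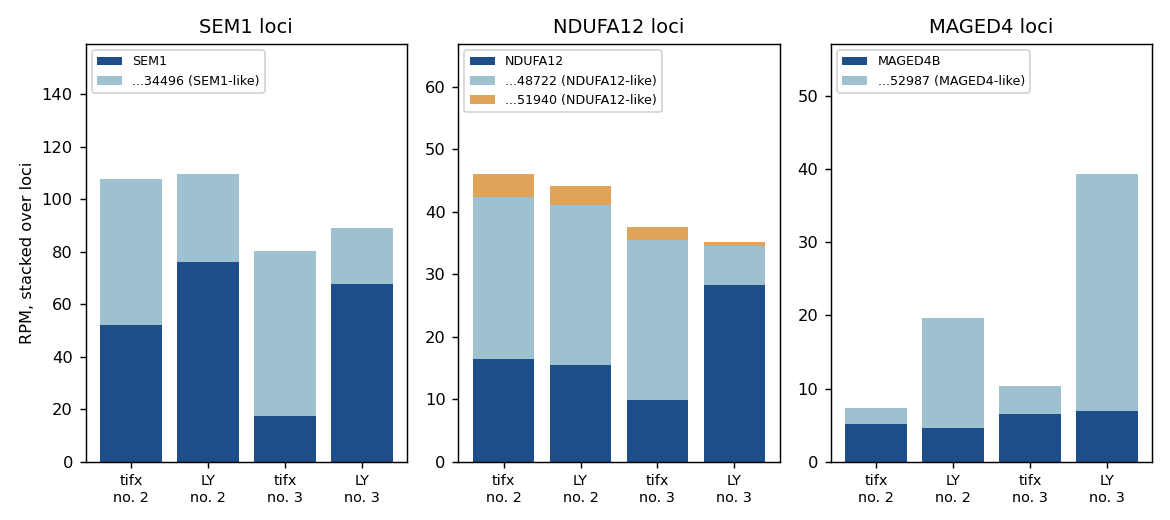
RPM (reads per 1000000, by the library size behind the deposited FPKM), stacked over the loci of SEM1, NDUFA12 and MAGED4 in each of the 4 libraries, with the named gene at the bottom of each bar. For SEM1 and NDUFA12 the parts change while the bar height stays close between tifx and LY of the same number, and for MAGED4 the bar rises from 7.29 to 19.6 for number 2 and from 10.3 to 39.4 for number 3.

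The receptors that LY targets and their partners showed no difference beyond the spread. RARG, which encodes the target RARγ, was at 19.5 and 11.9 FPKM in tifx and 14.2 and 10.5 in LY. It was lower in LY within both numbers but the groups overlapped, with a log2 fold change of -0.32 (SE 0.32, 95% confidence interval -1.17 to 0.53). RARA was at 16.6 and 24.7 in tifx and 17.9 and 23.7 in LY, and RXRA at 23.6 and 41.5 in tifx and 22.9 and 40.4 in LY, with log2 fold changes of 0.02 and -0.04. RARB, itself a retinoic acid target, was at 0.577 and 3.16 in tifx and 0.901 and 3.30 in LY, so the difference of 0.56 within number 2 was 0.06 within number 3. None of the 6 receptor genes passed the threshold, and their median log2 fold change was -0.05.

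Genes that make, carry or break down retinoic acid gave 0 calls among 14 tested of 20, with a median log2 fold change of -0.09. DHRS3, a retinaldehyde reductase that retinoic acid induces in many cells, was at 0.547 and 0.312 in tifx and 0.217 and 0.197 in LY (log2 fold change -0.75, SE 0.44). CRABP2, which carries retinoic acid to its receptors, was at 50.4 and 39.6 in tifx and 43.7 and 30.7 in LY, and its groups overlapped. CYP26B1, which degrades retinoic acid, was at 7.99 and 2.93 in tifx and 7.07 and 2.30 in LY. CYP26A1, often the most sensitive retinoic acid target, was listed at 0 in tifx and at 0.0805 and 0.109 in LY, too few reads to be tested. LY was lower within both numbers for 8 of the 14 genes (57.1%, against 27.8% of all genes).

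Known targets of retinoic acid had a median log2 fold change of -0.03, with 7 of 20 tested higher within both numbers, 6 lower within both and none past the threshold. For HOX genes the median was 0.28, with 0.34 within number 2, where 30 of 31 members were below 1 FPKM, and 0.01 within number 3. LY was higher within both numbers for 41.9% of the 31 (25.0% of all genes) and lower within both for 16.1% (27.8% of all genes), and none was past the threshold or without overlap. Over the 24 HOX genes above 5 FPKM in both number 3 libraries, the median difference within number 3 was -0.02, and none differed by more than 0.87. HOXB1 was at 21.0 in tifx and 17.2 in LY with number 3. MEIS2, a HOX cofactor, was at 10.2 and 37.7 in tifx and 8.05 and 26.5 in LY, lower in LY within both numbers by 0.34 and 0.51 log2 units (differences of -0.34 and -0.51).

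Transcripts of the mitochondrial respiratory chain hardly differed between LY and tifx. The 77 nuclear genes of complexes I to V that were tested had a median log2 fold change of 0.01, with 0.05 within number 2 and -0.02 within number 3, and none passed the threshold. Their groups did not overlap for 3 genes (3.90%, against 14.2% of all genes). This share also depends on the difference between the numbers, which had a median size of 0.40 log2 units for these genes. The median size of the difference between LY and tifx was 0.07 within number 2 and 0.06 within number 3. The 13 proteins encoded in mitochondrial DNA had a median of 0.06, with 0.11 within number 2 and 0.00 within number 3. LY was higher within both numbers for 46.2% of the 13 (25.0% of all genes) and lower within both for 0% (27.8% of all genes). All 13 overlapped between the groups. The 2 mitochondrial ribosomal RNAs were higher in LY without overlap, with log2 fold changes of 0.14 and 0.30 and no call. The widest difference belonged to NDUFA12, an accessory subunit of complex I, at 17.3 and 10.5 in tifx and 16.4 and 29.8 in LY, which was -0.08 within number 2 and 1.5 within number 3. Its copies ENSBTAG00000048722 and ENSBTAG00000051940 differed by -2.03 and -1.53 within number 3. Summed over the 3 loci, RPM was 46.1 and 37.6 in tifx and 44.1 and 35.2 in LY, differences of -0.07 and -0.09.

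Other metabolic lists also had medians near 0. The tricarboxylic acid cycle list had a median log2 fold change of 0.00, mitochondrial fission, fusion and turnover -0.03, fatty acid metabolism 0.02 and cholesterol synthesis -0.05. Among 20 regulators of mitochondrial biogenesis the median was 0.00 and the single call was MEF2B, a gene the study had named from these libraries before the list was made. For glycolysis and glucose uptake the median was -0.06, and 15 of 23 genes were lower in LY within both numbers (65.2%, against 27.8% of all genes), none past the threshold and none without overlap. CPT1A, the entry enzyme of mitochondrial fatty acid oxidation, was at 1.16 and 3.35 in tifx and 2.04 and 4.66 in LY. It was higher in LY within both numbers, with overlapping groups.

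Genes of the integrated stress response, through which cells short of amino acids or under endoplasmic reticulum stress raise ATF4 and its targets, were higher in LY within number 2 and not within number 3. The list of 20 had a median difference of 0.89 log2 units within number 2 and -0.02 within number 3. Within number 2 all 20 were higher in LY, 15 by more than 0.5 and 9 by more than 1, against 5.27% and 1.33% of all tested genes. Within number 3 the differences lay between -0.37 and 0.38. The tifx library of number 2 already exceeded that of number 3 for all 20, by a median of 0.85 log2 units (number 3 minus number 2, -0.85), and the LY library of number 2 was the highest of the 4 for all 20. None passed the threshold between the groups, and the median log2 fold change was 0.41.

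CHAC1, a glutathione-degrading enzyme induced by ATF4, was at 8.25 in tifx and 43.7 in LY with number 2 and at 0.715 and 0.962 with number 3. TRIB3, a pseudokinase target of the same pathway, was at 3.15 and 14.5 with number 2 and at 0.382 and 0.381 with number 3. ATF4, the pathway's transcription factor, was at 166 and 356 with number 2 and at 104 and 100 with number 3. In each of them a single library, LY number 2, stood above the other 3. Their log2 fold changes between the groups were 1.39 (SE 2.15), 1.08 (SE 1.93) and 0.52 (SE 0.67). PSAT1, of serine synthesis, was at 9.57 and 24.5 with number 2 and at 5.43 and 6.39 with number 3. ASNS, the asparagine synthetase, was at 87.3 and 113 with number 2 and at 51.0 in both libraries with number 3.

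With 1 library a side within each number these differences have no replicate check, and an effect of LY cannot be told apart from any other property of that 1 LY library. Leaving out the LY library of number 2 turned the list's median from 0.41 to -0.49, and leaving out that of number 3 raised it to 1.41. Each of these values sets 1 LY library against both tifx libraries, so it also carries the difference between the numbers. The matched medians were 0.89 within number 2 and -0.02 within number 3. Outside the list, INHBE and GDF15 were singled out after their values were seen. INHBE, a subunit of activin E, was at 1.5 and 9.20 with number 2 and at 0.282 and 0.0751 with number 3. GDF15, a stress-induced cytokine, was at 0.166 and 0 in tifx and 1.20 and 0.206 in LY, from 6 reads in tifx and 50 in LY over both numbers. Heat shock and protein folding genes, which mark other stress responses, had a median of 0.03, with 0.06 and 0.02 within the numbers. LY was higher within both numbers for 56.2% of these 16 genes (25.0% of all genes) and lower within both for 6.25% (27.8% of all genes). None was past the threshold or without overlap.

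**Figure D5:**
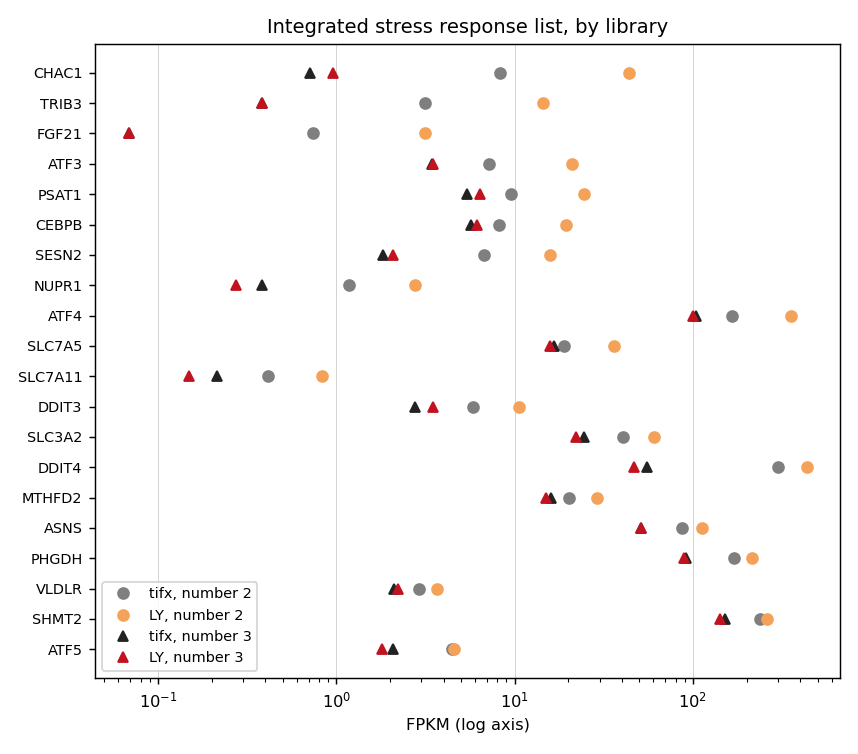
FPKM (log axis) of 20 integrated stress response genes in each library, with tifx in grey and black, LY in orange and red, circles for number 2 and triangles for number 3. The orange circles (LY number 2) are the highest of the 4 for all 20 genes, and the triangles of number 3 nearly coincide.

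Signalling and lineage lists held no further calls apart from PCDHA4 and BMP6. In the BMP, activin and TGF-beta list, 1 of 36 tested genes was past the threshold (BMP6), and the median log2 fold change was -0.08. Its ligand BMP4 was at 9.74 and 7.80 in tifx and 7.89 and 5.13 in LY, and SMAD6, an inhibitor that the pathway induces, at 2.63 and 2.26 in tifx and 1.68 and 1.42 in LY (log2 fold change -0.63, SE 0.30, no overlap). ID1, a direct target of the pathway, was at 19.1 and 10.8 in tifx and 18.1 and 10.2 in LY. The Wnt, FGF and Notch lists had medians of -0.03, 0.04 and -0.08, and the LIF and STAT3 list -0.06. FOXA2, an endoderm factor, was at 3.26 and 2.58 in tifx and 1.71 and 1.59 in LY (log2 fold change -0.78, 95% confidence interval -1.56 to 0.01), the lowest of 13 tested hypoblast genes. The epiblast list had a median of -0.05 and the trophectoderm list -0.18, both without calls. Cell cycle genes had a median of -0.02 and interferon and antigen presentation genes 0.01.

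Over all 40 lists, 3 of 659 tested genes were past the threshold (0.455%, against 0.187% of all genes). Both LY values lay above or below both tifx values for 57 of the 659 (8.65%, against 14.2% of all genes). This share also depends on the difference between the numbers, with a median size of 0.49 log2 units for list genes and 0.35 for all tested genes. The list medians ran from -0.28 for 4 tested lymphocyte genes to 0.41 for the integrated stress response, which was the only list with a median further than 0.3 from 0.

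Differences that were small but alike in both numbers were looked for among the 7015 genes with a mean FPKM of at least 10, after the values had been seen. A difference above 0.4 log2 units in the same direction within both numbers was found for 22 genes (0.314%), and in opposite directions for 9 (0.128%). Of the 22, 7 were higher and 15 lower in LY, and 8 of the 15 were snoRNAs, a class that made up 81 of the 7015 genes searched (1.15%). These 8 held only 9 to 94 reads in a library. All of them overlapped between the groups, and all were higher with number 3 than with number 2 in both groups. Among them ENSBTAG00000042471 differed by -0.79 and -0.91 within the numbers, and it passed adjustment in the fit with the replicate number as a block. RADX, which binds single-stranded DNA at replication forks, was at 51.8 and 47.8 in tifx and 72.7 and 71.1 in LY (log2 fold change 0.53, 95% confidence interval 0.20 to 0.86). MDK, the growth factor midkine, which was first found as a retinoic acid-induced gene, was at 158 and 175 in tifx and 117 and 129 in LY (log2 fold change -0.44, 95% confidence interval -0.80 to -0.07). Its difference was -0.44 within each number. TUBB2A, a beta-tubulin, was at 15.3 and 21.3 in tifx and 22.2 and 29.9 in LY. MEST, an imprinted hydrolase, was at 6.53 and 50.5 in tifx and 4.90 and 31.0 in LY, and ERAS, a Ras protein of embryonic stem cells, at 21.9 and 5.97 in tifx and 16.3 and 4.07 in LY. RADX, MDK and TUBB2A did not overlap between the groups, whereas MEST and ERAS overlapped because the numbers differed by more than LY and tifx did. HOXC6 and HOXB6, of the HOX clusters, overlapped for the same reason and were higher in LY within both numbers, at 0.820 and 40.4 in tifx and 1.32 and 55.1 in LY for HOXC6, and at 0.450 and 22.1 in tifx and 0.770 and 32.8 in LY for HOXB6. None of these 7 reached a fold change of 2.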

How the data were processed

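RNA-seq libraries of bESCs (2 LY, 2 tifx, grouped by their labels) were analysed. According to the study's methods, reads were trimmed with fastp, aligned (the methods name both STAR and HISAT2) and counted with featureCounts. The submitters' processing notes list HISAT2 2.0.5, StringTie 1.3.3b, featureCounts 1.5.0-p3 and DESeq2 1.20.0. The authors deposited FPKM values per gene in a table described as normalized counts, and their fold changes and p-values in the same table were not used. No per-sample column was left unmapped. Multiplying FPKM by gene length and by the library size inferred from the smallest steps in each library's values gave whole reads for 100.0% of values within 0.02 reads.

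log2(FPKM + 0.1) was tested with limma 3.58.1 in R 4.3.3 (linear fit, moderated with an intensity trend) for genes averaging at least 10 reads. A call needed an unadjusted p below 0.05 and an absolute log2 fold change above 1, after the study, and p was also Benjamini-Hochberg adjusted over all 16026 genes. The fit was tested on simulated data with an assumed spread between libraries and 200 genes changed by 1 or by 2 log2 units. Of the changed genes 67% and 96% reached an unadjusted limma p below 0.05, and 0.0% passed adjustment in both cases. With the replicate number as a block, 88.5% and 100.0% passed adjustment.

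Named genes were those past adjustment (none), the called genes with the smallest p and a mean FPKM of at least 0.5 (up to 12 per direction), MEF2B, GZMA and LGALS9, list members past the threshold, and examples of each list. Of 763 list entries 742 were matched and the others were not analysed here. The members and lists were chosen with earlier results of these data known. Sequences were not analysed here. Some items are not reported here.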

Additional observations from a re-analysis of the deposited data

How the results depend on the processing

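No gene passed adjustment under any alternative except the replicate block. Of the 30 genes past the threshold 26 were followed by name. In 333 comparisons over 14 alternatives none of them changed direction and 137 lost the call. Both LY values of each lay beyond both tifx values, so most alternatives could not have changed a direction. Counts of genes past the threshold, 14 higher and 16 lower as reported, depended on how low values were treated. A pseudocount of 1 FPKM gave 2 higher and 5 lower, no filter 92 and 108, a minimum mean of 50 reads 2 and 2, log2(normalized count + 1) 6 and 6, and voom weights 6 and 9. With protein-coding genes only, an alternative added after seeing the data, 9 were higher and 12 lower. Leaving out 1 library in turn gave 26 to 61 higher and 13 to 73 lower, with a lone library assumed to vary like the other group. Without tifx number 2 the counts were 42 and 28, without tifx number 3 61 and 13, without LY number 2 26 and 42, and without LY number 3 35 and 73. ENSBTAG00000052987 kept its call in every one of these (log2 fold change 1.98 to 3.36). MEF2B lost it with a pseudocount of 1 (0.61) and without tifx number 3 or LY number 2 (log2 fold changes 1.71 and 1.56).

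Genes differing by more than 1 log2 unit within both numbers, 30 in the same and 27 in opposite directions, became 7 and 2 with a pseudocount of 1, 67 and 67 with 0.01, 215 and 194 without the filter, 2 and 4 at 50 reads, 62 and 59 on normalized counts, and 70 and 68 with voom values. List genes past the threshold, 3 as reported, were 0 with a pseudocount of 1, 6 without the filter, 1 at 50 reads, and 1 to 17 without 1 library each (1 without tifx number 3, 17 without LY number 3). Taking the list medians together with the count of list genes past the threshold, 410 of 574 comparisons stayed the same. For a median this meant a move no larger than the spread of its within-number values, and for the count a similar number.

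A fit with the replicate number as a block gave 58 higher, 57 lower, 6 past adjustment and 7 list genes past the threshold. An unadjusted limma p below 0.05 was reached by 1123 genes (7.01%) in it. The 6 were ENSBTAG00000052987 (limma, adjusted p = 0.00956), RADX, SNORA79B and the snoRNA ENSBTAG00000051686 (0.0289 each), MDK (0.0362) and the snoRNA ENSBTAG00000042471 (0.0426). The labels do not say that a number marks a shared culture, and there were only 2 pairs. The number difference correlated at 0.813 between tifx and LY across genes. Libraries of the same number therefore went together, whatever the number marks. The main fit has no term for the number and counts that difference as spread within the groups.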
